A study of Mus musculus with 3 samples.

Results

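Cyclic nucleotide signalling was read from 38 genes: 2 stimulatory G protein alpha subunits, 9 adenylyl cyclases, 19 phosphodiesterases, 6 protein kinase A subunits and 2 Epac exchange factors. The genes were listed by name and function and were 38 of the 24042 gene symbols that could be assigned. Cyclic AMP (cAMP) is made by adenylyl cyclases when receptors activate the stimulatory G protein Gs, is destroyed by phosphodiesterases, and acts through protein kinase A (PKA), the Epac exchange factors and gated ion channels. In hormone-secreting gut cells, a rise in cAMP raises the release of hormone granules. Cyclic GMP (cGMP) is the sister messenger that intestinal epithelium makes in answer to guanylin peptides, and some phosphodiesterases destroy one messenger, some both.

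The study sequenced polyadenylated RNA from cells sorted out of the villous fraction of upper small intestine from C57BL/6 mice. GIP-GFP cells carry a green reporter and express GIP, an incretin hormone. Ngn3-TOMATO cells came from male offspring of Neurogenin3 (Ngn3)-Cre and ROSA26-LoxP-STOP-LoxP-tomato mice and are red because they, or the progenitors they came from, expressed Neurogenin 3, which starts enteroendocrine differentiation. Ngn3-negative cells are the tomato-negative epithelial cells, and both tomato sorts left out cells stained for CD45, a blood cell marker. No CD45 gate is described for the GIP-GFP sort, and the ages of the mice, the GIP reporter construct and the number of mice per pool are not given in the sources used here. Each group is 1 library made from equal amounts of pooled RNA samples, so no difference has a replicate check and no test was possible. The Cre label is a lineage mark, so red cells need not be endocrine.

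Levels are given in scaled FPKM, which is the deposited value per transcript length divided by 1 common number, so levels of different genes can be compared. Unless stated otherwise, 3 values in a row are for the GIP-GFP library, the Ngn3-TOMATO library and the Ngn3-negative library. Read bases over the listed transcripts came to 592 Mb, 1380 Mb and 1030 Mb, and 13016, 13105 and 11944 genes reached 1 scaled FPKM. All 13 enteroendocrine markers were at least 2-fold higher in each reporter library than in Ngn3-negative. In Ngn3-TOMATO, however, the 7 goblet cell markers measured summed to 170977 (5357 in GIP-GFP and 30920 in Ngn3-negative) and Paneth cell markers to 27398 (2340 and 4860). Tuft cell markers summed to 69.7, 458 and 228, enterocyte markers to 14254, 9896 and 47569, and lymphocyte markers to 498, 94.6 and 222. No defining marker of goblet cells, Paneth cells, enterocytes or lymphocytes was listed at 0 in any library. Of the stroma and smooth muscle markers, 9 of 10 were under 1 in each library, as were 7, 5 and 8 of the 10 markers of enteric neurons and glia. The exception in the stroma list was Vim, at 48.8% of its Ngn3-TOMATO level in GIP-GFP and 2.69% in Ngn3-negative. That list summed to 146, 299 and 9.32. Myeloid markers summed to 55.9, 21.6 and 27.6, and endothelial markers to 2.35, 11.7 and 0.985. In such bulk libraries, fewer cells of a type and less RNA per cell cannot be told apart.

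Among the 38 genes, 12 stood at least 2-fold higher in both reporter libraries than in the rest of the epithelium, and a few isoforms of the same families were highest in that rest. Of the 38 genes, 33 reached 1 scaled FPKM in at least 1 library, and the median level over all 38 was 13.5, 13.6 and 2.75. Ngn3-negative was the lowest of the libraries for 20 of these 33 genes and the highest for 6, by level with no margin. Neither this order, nor the 12 genes higher in both, nor the set of genes named next was counted over all genes. Ngn3-negative also had the smallest scaled total (897477, beside 1039826 in GIP-GFP and 1062697 in Ngn3-TOMATO). The adenylyl cyclases Adcy1 and Adcy2, the phosphodiesterases Pde1c, Pde2a, Pde8a and Pde11a, the exchange factor Rapgef4 and the PKA subunits Prkacb and Prkar1b were at least 4-fold higher in both reporter libraries. Under every alternative processing, this held for Adcy1, Adcy2 and Pde2a alone. A pseudocount of 5 took each of the other 6 genes under 4-fold in at least 1 comparison, to between 1.16 and 1.99 on the log2 scale. Adcy1, Adcy2, Pde1c and Prkar1b were under 1 in Ngn3-negative. Pde9a, Pde5a, Pde3a and Prkar2a, in contrast, were highest in Ngn3-negative. As deposited, only Pde3a in GIP-GFP and Pde5a in Ngn3-TOMATO were 2-fold or more lower. Adcy6 was nearly equal in Ngn3-TOMATO and Ngn3-negative. The plot of levels by library shows this spread.

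**Figure D1:**
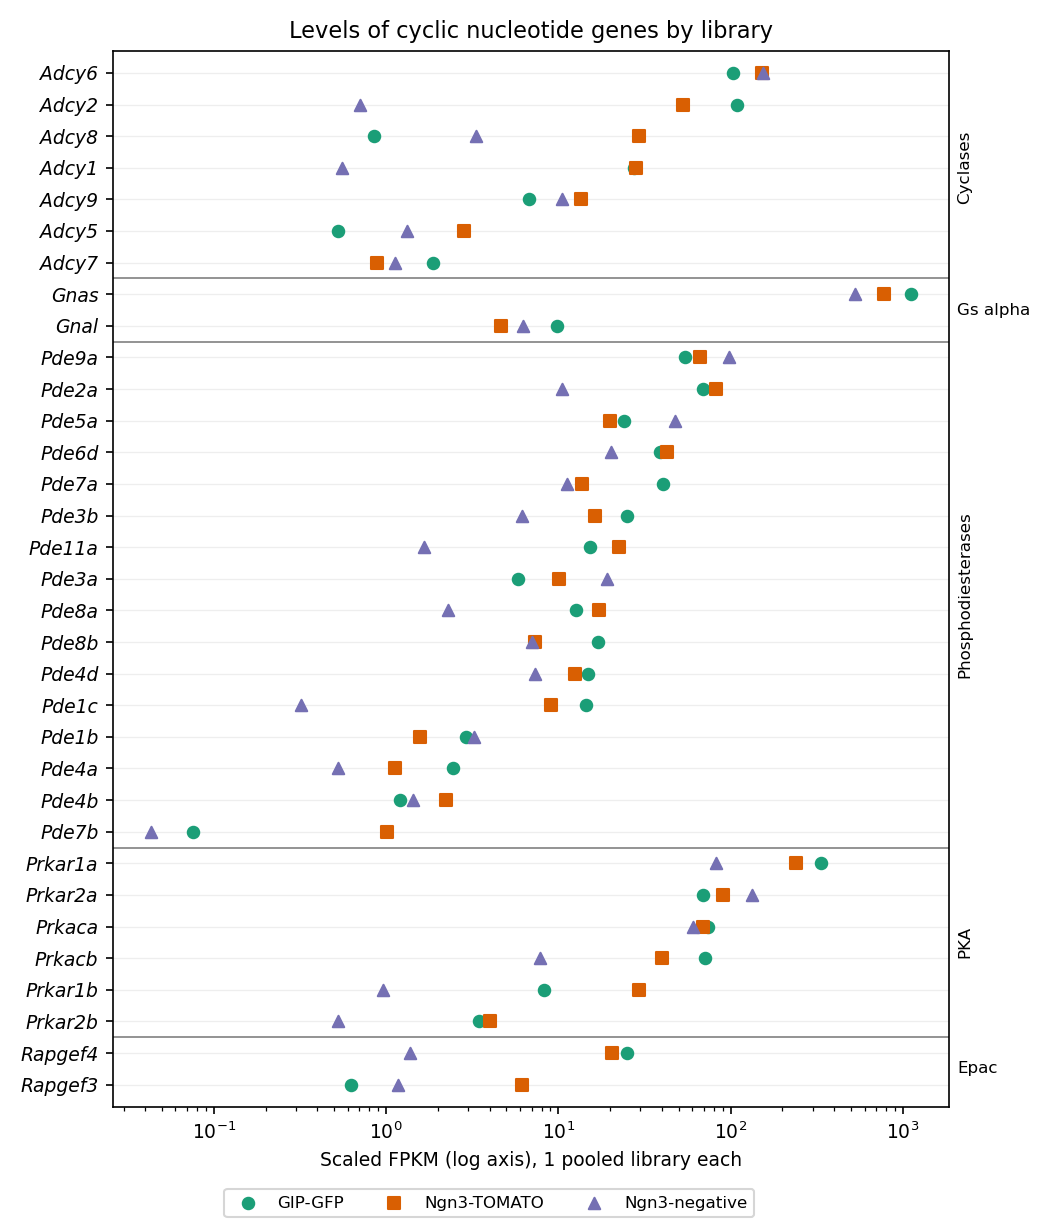
Level of each of the 33 genes that reached 1 scaled FPKM in at least 1 library (x axis, log scale), grouped by role, with 1 point per pooled library and so no error bars. Ngn3-negative (triangles), which has the smallest scaled total, is the lowest library for 20 genes, by level with no margin and without a count over all genes. Gnas spans 526 to 1110 and is the highest gene of the set in every library.

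Against Ngn3-negative, GIP-GFP had 16 of 32 measured genes at least 2-fold higher and 2 lower, where 21% of the 13428 genes measured were higher and 13.8% lower. With the libraries scaled to equal totals, 14 were higher and 5 lower, beside 18.6% and 17.9% of all genes. At 4-fold as deposited, 10 were higher and none lower, beside 10.2% and 2.76% of all genes. The median log2 ratio of the 32 was 1.00 and that of all genes 0.07. Ngn3-TOMATO had 15 of 33 higher and 1 lower than Ngn3-negative, beside 19.2% and 9.96% of 13406 genes. Here 10 were at least 4-fold higher (8.86% of all genes) and none 4-fold lower (1.89%), and the median was 0.72 beside 0.03. Between the reporter libraries, 3 of 33 were higher in GIP-GFP and 4 lower, beside 8.03% and 8.75% of 13694 genes, and the median was -0.04 beside 0.08. Each library enters 2 of these comparisons, so they are not independent. The genes measured had to pass a filter in 1 of the 2 libraries, which favours genes that differ. Of the genes called higher, Adcy1, Adcy2, Pde1c, Pde4a, Prkar1b and Prkar2b were under 1 in Ngn3-negative. They passed the filter against it only through a reporter library. The 5 genes under 1 everywhere are Adcy3, Adcy4, Pde1a, Pde4c and Pde10a. Adcy3 and Pde1a were listed at 0 in all libraries, and since 46.7% to 48.4% of the transcripts of multi-transcript genes at 10 or more are also listed at 0, a listed 0 does not show that a gene is silent.

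**Figure D2:**
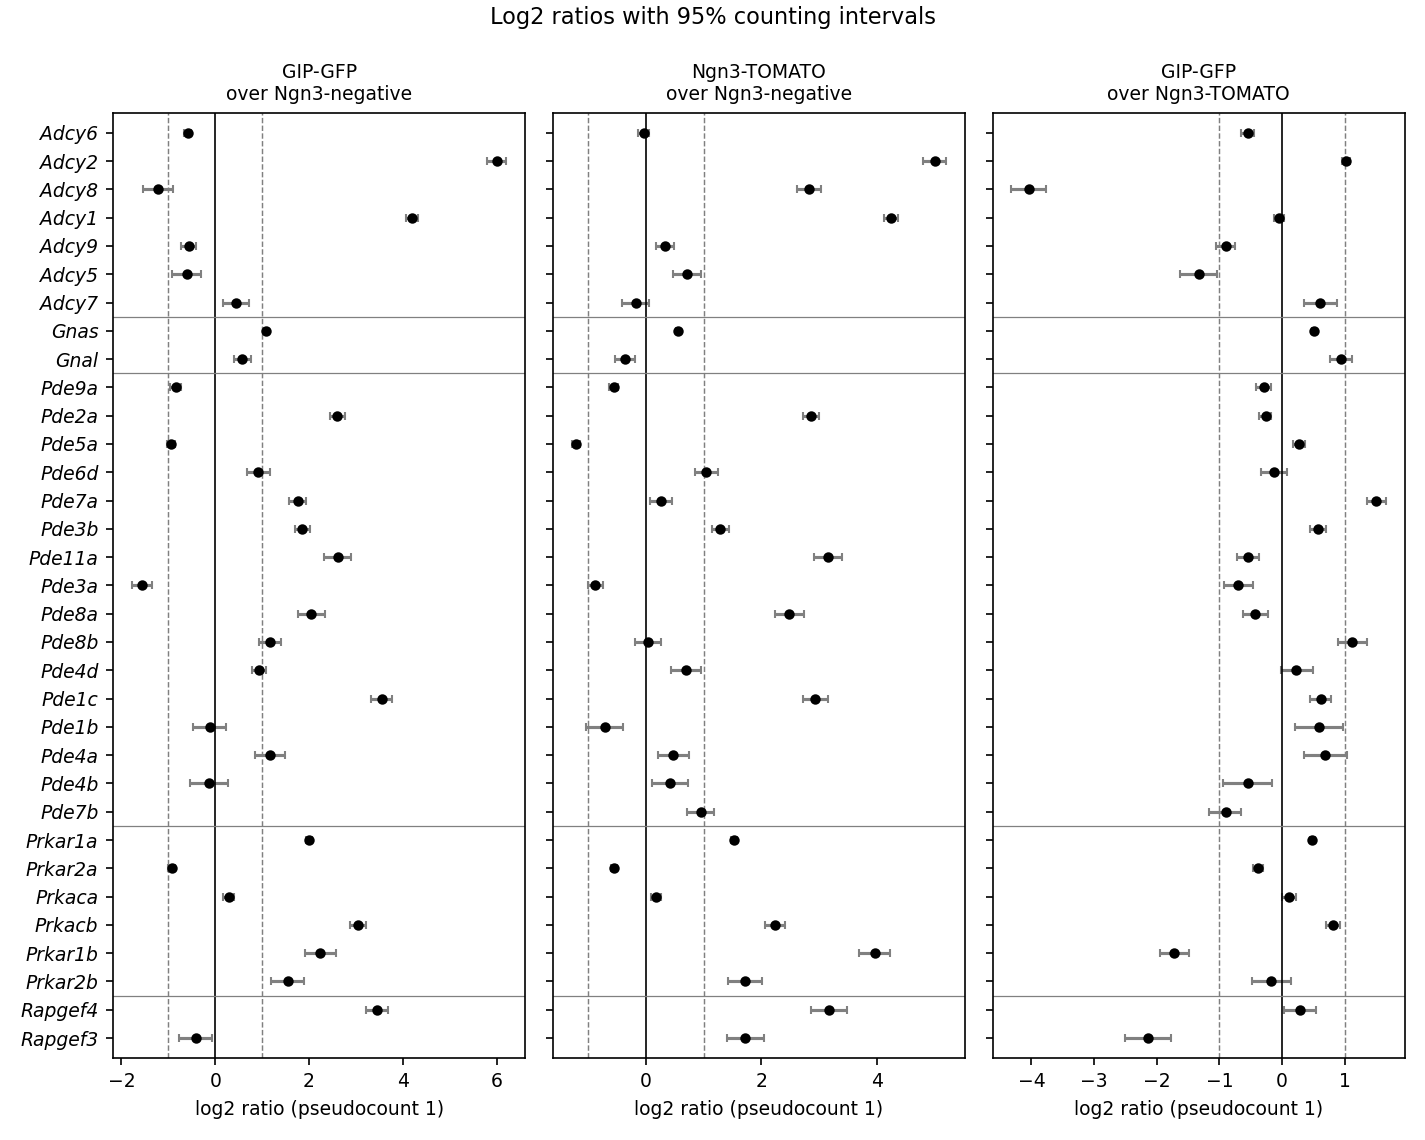
Log2 ratio (x axis, pseudocount 1) of the same genes in the 3 comparisons, with bars for the 95% counting interval within these libraries and dashed lines at 2-fold. Adcy2 is farthest to the right against Ngn3-negative (6.01 in GIP-GFP and 4.99 in Ngn3-TOMATO), and Adcy8 is farthest to the left between the reporter libraries (-4.04); bars do not cover differences between mice or sorts.

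Gnas encodes the alpha subunit of Gs, which couples receptors to adenylyl cyclase. Its level was 1110, 777 and 526, the highest of the 38 genes in each library, and the log2 ratio of GIP-GFP to Ngn3-negative was 1.08 (95% counting interval 1.03 to 1.12). That call is lost when the libraries are scaled to equal totals, which gives 0.86. Ngn3-TOMATO was 0.56 above Ngn3-negative on the log2 scale. The value stood almost whole on transcripts that start at position 174327914 of chromosome 2 (mm10), which held 100% in both reporter libraries and 95.2% in Ngn3-negative, and the forms from the more upstream starts were listed at 0. Gnal, the olfactory relative of Gnas, was far lower, at 9.80, 4.63 and 6.21, and stayed within 2-fold in every comparison.

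The promoters of 4 genes that lead their classes in the reporter libraries are printed here. Start sites throughout are those of annotated transcripts, among which reads were divided by estimate, so start use was not measured. The genes are Adcy2, the cyclase farthest above Ngn3-negative, Pde2a, the most abundant phosphodiesterase, Prkar1a, the most abundant PKA subunit, and Rapgef4, the dominant Epac. Each printed run is up to 250 bases upstream of a RefSeq start, on GRCm38 (mm10), without bases in any annotated exon. That RefSeq start coincides with the start of the most abundant transcript in the files. Capitals mark GC boxes (GGGCGG or CCGCCC) and sites that hold the core letters of the cAMP response element (TGACG or CGTCA).
Adcy2 (chr13:68999542-68999791, minus strand): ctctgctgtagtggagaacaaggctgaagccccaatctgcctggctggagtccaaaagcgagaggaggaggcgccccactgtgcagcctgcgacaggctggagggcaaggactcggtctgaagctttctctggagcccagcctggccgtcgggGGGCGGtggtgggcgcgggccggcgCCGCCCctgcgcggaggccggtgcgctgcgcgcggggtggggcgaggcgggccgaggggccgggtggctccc
Pde2a (chr7:101451002-101451251, plus strand): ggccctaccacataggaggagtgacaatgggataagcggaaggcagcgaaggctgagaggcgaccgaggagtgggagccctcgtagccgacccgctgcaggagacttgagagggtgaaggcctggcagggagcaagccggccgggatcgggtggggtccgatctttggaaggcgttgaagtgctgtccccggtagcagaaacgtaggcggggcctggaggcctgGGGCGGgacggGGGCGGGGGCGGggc
Prkar1a (chr11:109650699-109650920, plus strand): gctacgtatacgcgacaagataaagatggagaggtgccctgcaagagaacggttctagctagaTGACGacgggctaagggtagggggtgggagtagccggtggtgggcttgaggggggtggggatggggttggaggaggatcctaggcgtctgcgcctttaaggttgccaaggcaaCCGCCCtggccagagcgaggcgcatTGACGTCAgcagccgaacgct
Rapgef4 (chr2:71980965-71981214, plus strand): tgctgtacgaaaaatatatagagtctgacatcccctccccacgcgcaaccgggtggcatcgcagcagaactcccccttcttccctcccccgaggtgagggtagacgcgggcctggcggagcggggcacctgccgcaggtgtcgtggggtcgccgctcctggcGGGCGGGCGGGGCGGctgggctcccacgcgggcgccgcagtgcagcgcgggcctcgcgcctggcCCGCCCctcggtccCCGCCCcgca
The GC content of these runs is 73.2%, 68%, 60.8% and 73.6%. Rapgef4 has 5 GC boxes, some of them overlapping, Pde2a 3, Adcy2 2 and Prkar1a 1. Prkar1a alone among the printed runs has cAMP response element letters: 1 full palindrome (TGACGTCA), whose arms count as 2 cores, and 1 further core. Over the 31 of the 38 genes with an entry in the RefSeq promoter table, the 250 bases before the start held a GC box in 17 (54.8%, beside 32.7% of all 32817 promoters), a core in 7 (22.6% beside 17.7%), the full palindrome in 1 (3.23% beside 1.55%) and the E-box CAGATG, in the form bound by basic helix-loop-helix factors such as Neurod1, in 4 (12.9% beside 14.5%). Both strands were searched, the core count includes the full palindromes, and in 26 of the 31 the RefSeq start lay within 500 bases of the main start in the files. Each of the 31 genes entered with 1 start, the entry nearest its main start, while the 32817 promoters are all distinct starts of the RefSeq promoter table. The shares thus come from sets picked differently. These are letter matches and show no binding.

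Among the 9 adenylyl cyclases, which turn ATP into cAMP, Adcy2 and Adcy1 set the reporter libraries apart. Adcy2 (uc007rcf.1, chromosome 13, 68620043 to 68999541), a calcium-insensitive isoform stimulated by G protein beta-gamma subunits, stood at 108, 53.0 and 0.702. Its log2 ratio to Ngn3-negative was 6.01 (5.80 to 6.21) in GIP-GFP and 4.99 (4.78 to 5.19) in Ngn3-TOMATO, from the start whose promoter is printed above. GIP-GFP was 2.02-fold above Ngn3-TOMATO, a call that a pseudocount of 5 or the median ratio scaling loses (0.97 and 0.96 on the log2 scale). Adcy1, a calcium and calmodulin-stimulated isoform best known from neurons, was nearly equal in the reporter libraries at 27.5 and 28.3 and stood at 0.556 in Ngn3-negative. Its log2 ratios to Ngn3-negative were 4.19 and 4.23, and that between the reporter libraries was -0.04 (-0.13 to 0.04). Both cyclases stood in Ngn3-negative at 1.32% (Adcy2) and 1.97% (Adcy1) of the Ngn3-TOMATO level, inside the 1.15% to 3.21% of the 13 enteroendocrine markers. That range also held Vim of the stroma list (2.69%) and Elavl4 of the neuron and glia list (2.09%). The part of endocrine cells in these values was not tested.

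Adcy8, the other strongly calcium and calmodulin-stimulated cyclase, had a different pattern. It stood at 0.857, 29.6 and 3.34, so that the GIP cells had the lowest level and the wider lineage the highest. GIP-GFP was 16.5-fold below Ngn3-TOMATO (log2 ratio -4.04, interval -4.32 to -3.76), and this held over all alternatives, from -4.95 to -2.56. GIP-GFP was also lower than Ngn3-negative, with a log2 ratio of -1.23 that shrank to -0.51 at its smallest. The 7 goblet and 6 Paneth cell markers measured shared this order of libraries, with medians of -4.31 and -3.51 between GIP-GFP and Ngn3-TOMATO, as did tuft cell markers with -2.48; their part in the Adcy8 difference was not tested. Chga, the granule protein of several endocrine types, shared the order of the reporter libraries too, at 323, 8847 and 125. Adcy5 was low, at 0.529, 2.83 and 1.33, with GIP-GFP 2.51-fold below Ngn3-TOMATO, a call lost with a pseudocount of 5 (-0.50).

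Adcy6, which calcium inhibits, was the common cyclase of all 3 libraries. Its level was 103, 151 and 155, and no comparison reached 2-fold. Ngn3-TOMATO and Ngn3-negative differed by -0.03 (-0.13 to 0.06) on the log2 scale, and the sign of that value turned with the scaling (-0.27 to 0.11). Adcy9 stood at 6.73, 13.5 and 10.5, of which 68.1%, 78.9% and 70.5% lay on a transcript with the status LOWDATA, the Cufflinks mark for loci too complex or too thinly sequenced. Adcy7 stood between 0.882 and 1.88. Summed over the class, cyclase levels came to 249, 280 and 173.

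Shares within a class do not depend on how the libraries were scaled. Adcy6 took 89.7% (89.0 to 90.3) of the summed cyclase level in Ngn3-negative, 54.1% in Ngn3-TOMATO and 41.3% in GIP-GFP. Adcy2 took 43.6%, 19% and 0.407% across the libraries in the usual order. GIP-GFP thus held Adcy2 and Adcy6 in nearly equal measure, with a ratio of 1.05 (0.995 to 1.12), where Ngn3-TOMATO had 0.35 and Ngn3-negative 0.00454. With the most abundant transcript of each gene alone, Adcy2 took 63.6% and Adcy6 22.7% in GIP-GFP, so the size of these shares rests on how the transcripts of Adcy6 are summed.

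**Figure D3:**
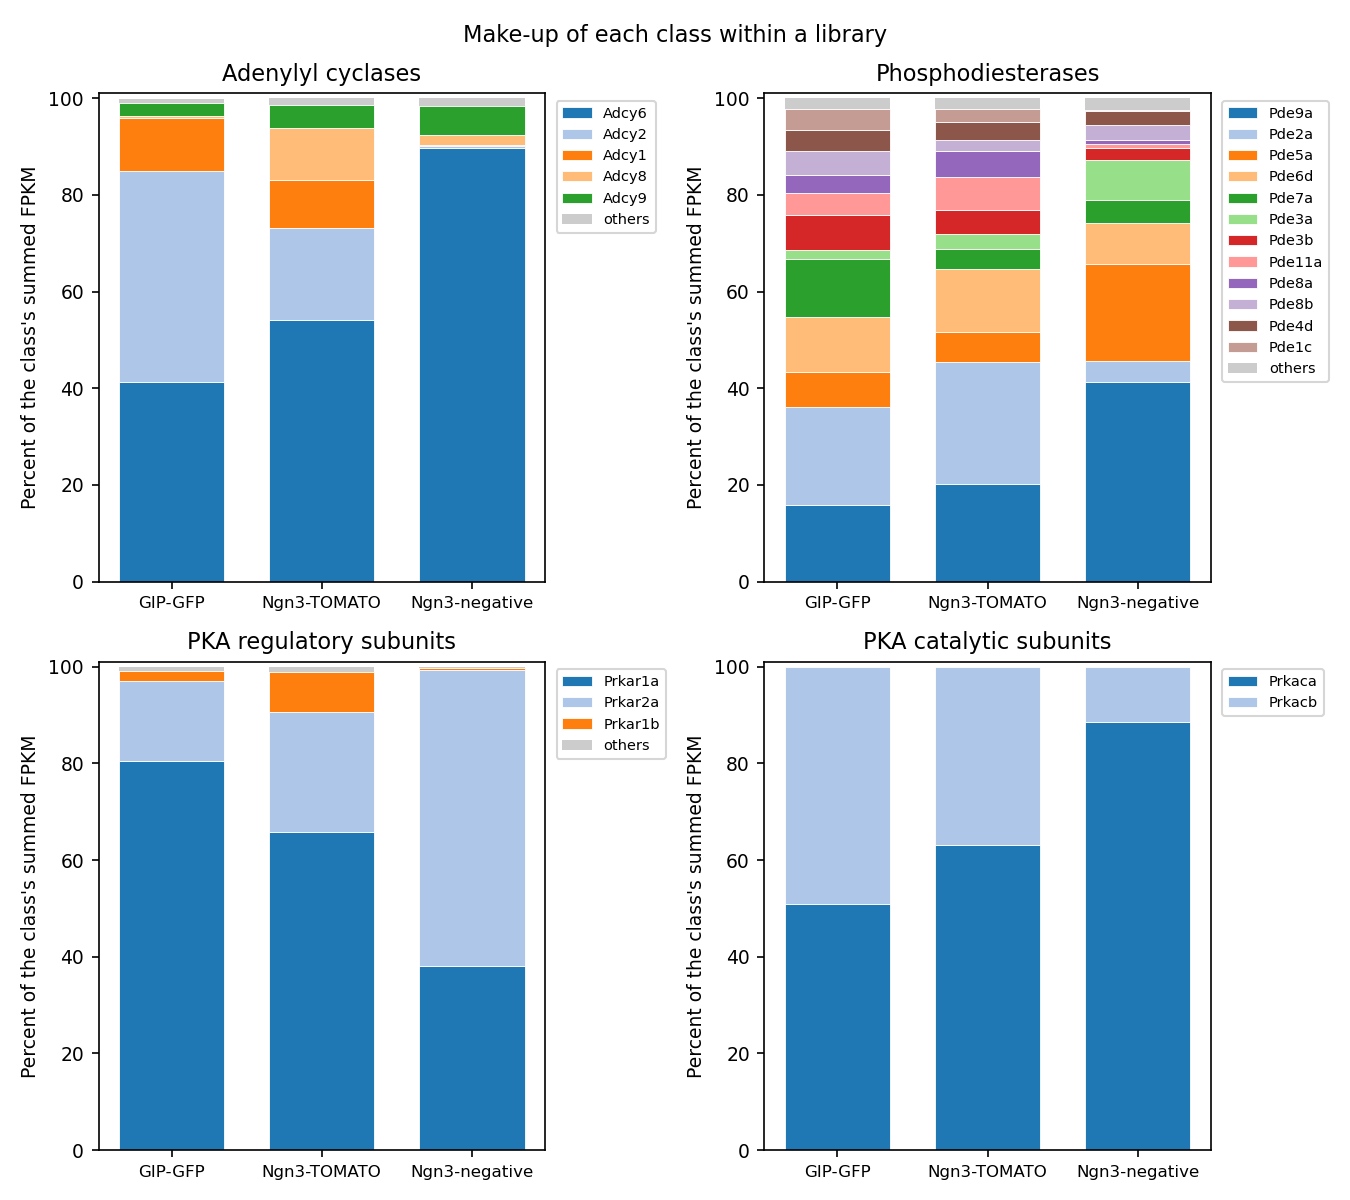
Share of each gene in the summed level of its class (y axis, percent), with 1 stacked bar per library. Adcy6 falls from 89.7% of cyclases in Ngn3-negative to 41.3% in GIP-GFP, and Prkar1a goes from 38.1% of PKA regulatory subunits to 80.5%; genes under 3% in every library are summed as others.

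Of the phosphodiesterases, 8 of 15 measured were at least 2-fold higher in GIP-GFP than in Ngn3-negative, 1 was lower and 6 were within 2-fold, beside 21% higher and 13.8% lower over all genes. In Ngn3-TOMATO 6 of 16 were higher, 1 was lower and 9 were within 2-fold, beside 19.2% and 9.96%. Of those called higher, Pde1c and Pde4a were under 1 in Ngn3-negative and passed the filter only through a reporter library. Pde2a (uc009iot.3, chromosome 7, 101451252 to 101512829), a cGMP-stimulated enzyme for both messengers, was the most abundant in both reporter libraries, at 68.8, 82.7 and 10.5. Its log2 ratios to Ngn3-negative were 2.60 (2.44 to 2.76) and 2.86 (2.72 to 3.0), and those of the reporter libraries to each other -0.26 (-0.36 to -0.17). The start whose promoter is printed above held 100% of its level in Ngn3-TOMATO and Ngn3-negative and 82.7% in GIP-GFP, where forms from an upstream start at 101421691 held the other 17.3%.

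Pde1c, a calcium and calmodulin-activated enzyme for both messengers, had the largest ratio of the class in GIP-GFP. It stood at 14.4, 9.06 and 0.321, with log2 ratios to Ngn3-negative of 3.55 (3.32 to 3.77) and 2.93 (2.72 to 3.14). Pde11a, which also destroys both, stood at 15.2, 22.6 and 1.67, with log2 ratios of 2.61 and 3.14. Pde8a, a cAMP-specific enzyme of high affinity, stood at 12.6, 17.3 and 2.28, with log2 ratios of 2.05 and 2.48. The reporter libraries were above Ngn3-negative for all 3 of these genes and within 2-fold of each other. Pde3b, which cGMP inhibits and insulin activates in other cells, stood at 25, 16.4 and 6.14. Its log2 ratios were 1.86 and 1.29, and the second fell to 0.94 with a pseudocount of 5.

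Pde7a and Pde8b, both cAMP-specific, were higher in GIP-GFP than in either other library. Pde7a stood at 40.5, 13.7 and 11.3, which put GIP-GFP 2.83-fold above Ngn3-TOMATO (log2 ratio 1.5, interval 1.35 to 1.66). The excess lay on 1 transcript: the form starting at 19264969 on chromosome 3 stood at 36.0, 9.14 and 7.53, and the form from the upstream start at 19311322 at 4.57, 4.51 and 3.72. Lymphocyte markers were also higher in GIP-GFP, at least 2-fold over Ngn3-TOMATO for 8 of 9, with Gzma, a granule protease of cytotoxic cells, at 243, 36.1 and 94.6 and Ptprc, which encodes CD45, at 6.54, 3.69 and 3.74. Their part in the Pde7a level was not tested. Pde8b stood at 17.1, 7.29 and 7.05, and its 2-fold calls were lost with a pseudocount of 5 (0.84 against Ngn3-TOMATO). Pde4a, a cAMP-specific enzyme of the rolipram-sensitive family, was low at 2.44, 1.13 and 0.527, and its call against Ngn3-negative fell to 0.43 under the same setting.

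Enzymes specific for cGMP were among those highest in Ngn3-negative. Pde1c, Pde2a and Pde11a, which destroy both messengers, were higher in the reporter libraries. Pde1b, of the same family as Pde1c, did not share that direction. It was low, at 2.90, 1.58 and 3.22, within 2-fold in every comparison and highest in Ngn3-negative. Pde9a, a cGMP-specific enzyme of high affinity, stood at 54.1, 66.5 and 97.9 and was the most abundant there. Pde5a, the cGMP-specific target of sildenafil, stood at 24.2, 19.9 and 47.4, with log2 ratios of -0.94 (-1.03 to -0.85) in GIP-GFP and -1.21 (-1.28 to -1.14) in Ngn3-TOMATO. Pde3a, a cGMP-inhibited enzyme that destroys cAMP, stood at 5.86, 10.1 and 19.3 and was 2.96-fold lower in GIP-GFP than in Ngn3-negative. Pde3a and Pde3b thus stood in opposite order across the libraries. When the libraries are scaled to equal totals, Pde5a and Pde9a also pass 2-fold lower in GIP-GFP, at -1.15 and -1.05. Enterocyte markers shared the direction of these genes, with medians of -1.85 and -2.24, and their part was not tested.

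Pde6d, whose product is a prenyl-binding chaperone rather than an enzyme, stood at 39.1, 42.9 and 20.2, within 2-fold in GIP-GFP and at 1.05 on the log2 scale in Ngn3-TOMATO, which a pseudocount of 5 or equal totals takes to 0.81 at the lowest. Pde4d stood at 14.8, 12.4 and 7.29 and did not reach 2-fold, although 4 alternatives put GIP-GFP past it (up to 1.16). Pde1b, Pde4b and Pde7b stood between 0.0433 and 3.22 in all libraries and within 2-fold where measured. As shares of the class, Pde2a took 20.3% in GIP-GFP and 25.2% in Ngn3-TOMATO against 4.44% in Ngn3-negative, where Pde9a took 41.3% and Pde5a 20%. The ratio of Pde2a to Pde5a within a library was 2.84 (2.61 to 3.08), 4.15 (3.95 to 4.36) and 0.222 (0.200 to 0.247).

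PKA is a complex of regulatory subunits that bind cAMP and catalytic subunits that they then release. Against Ngn3-negative 4 of its 6 genes were at least 2-fold higher in each reporter library and none lower, beside 21% and 19.2% of all genes higher. Prkar1b and Prkar2b, among those higher, were under 1 in Ngn3-negative, so they passed the filter only through a reporter library. The count was 3 in both with a pseudocount of 5 and 3 in Ngn3-TOMATO with transcripts of status OK only, and equal totals put 1 gene, Prkar2a, lower in GIP-GFP. Prkar1a (uc007mcu.1, chromosome 11, 109650949 to 109669648), the type I alpha regulatory subunit, stood at 334, 239 and 82.6, second only to Gnas among the 38 genes in both reporter libraries. Its log2 ratio was 2.00 (1.94 to 2.07) in GIP-GFP and 1.52 (1.47 to 1.58) in Ngn3-TOMATO. A transcript starting upstream at 109650441, whose estimates have the status LOWDATA, held 26.4% and 33.4% of the level in the reporter libraries and was listed at 0 in Ngn3-negative. Without it, the log2 ratio was 1.56 in GIP-GFP and 0.94 in Ngn3-TOMATO, so the second is under 2-fold.

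Prkar2a, the type II alpha regulatory subunit that binds anchoring proteins with high affinity, ran the other way, at 69.1, 90.5 and 132. Neither reporter library reached 2-fold below Ngn3-negative as deposited (-0.93 and -0.55), and equal totals took GIP-GFP to -1.14. The ratio of Prkar1a to Prkar2a within a library was 4.84 (4.58 to 5.11), 2.64 (2.56 to 2.73) and 0.623 (0.597 to 0.651), so the more abundant regulatory subunit differed. Prkar1a took 80.5%, 65.8% and 38.1% of the summed regulatory level, and 75.3%, 56.2% and 38.1% without the LOWDATA transcript.

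Prkar1b, the type I beta subunit known from brain, stood at 8.31, 29.6 and 0.966. Ngn3-TOMATO was 15.6-fold above Ngn3-negative (log2 ratio 3.96, interval 3.69 to 4.22), and GIP-GFP was 3.29-fold below Ngn3-TOMATO (-1.72, interval -1.95 to -1.49). Its pattern between the reporter libraries thus had the direction of Adcy8 with a smaller size. Prkar2b, the type II beta subunit, was low at 3.45, 4.02 and 0.526, and its calls against Ngn3-negative (1.55 and 1.72) were lost with a pseudocount of 5 (0.61 and 0.71).

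The catalytic subunits differed from each other. Prkaca stood at 74.4, 68.8 and 60.8, within 1.22-fold in every comparison, with log2 ratios to Ngn3-negative of 0.29 (0.17 to 0.40) and 0.18 (0.09 to 0.27); the second turned to -0.06 at equal totals. Prkacb stood at 71.5, 40.3 and 7.78, with log2 ratios of 3.04 (2.87 to 3.22) and 2.23 (2.06 to 2.41). The ratio of Prkacb to Prkaca went from 0.128 (0.112 to 0.147) in Ngn3-negative to 0.585 (0.548 to 0.624) in Ngn3-TOMATO and 0.960 (0.883 to 1.04) in GIP-GFP. The estimated split over start sites differed as well. The start at 146770693 of chromosome 3 held 79.9%, 43.9% and 10.3% of the Prkacb level. The most upstream start at 146812946 held 20.1%, 40.5% and 65%. A start at 146770238 held 15.6% in Ngn3-TOMATO alone, and that at 146781416 held 24.7% in Ngn3-negative alone. In levels, the form from 146770693 stood at 57.1, 17.7 and 0.799 and the most upstream form at 14.4, 16.3 and 5.06. The reporter libraries thus differed 2-fold or more in the form from 146770693 and little in the most upstream form.

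**Figure D4:**
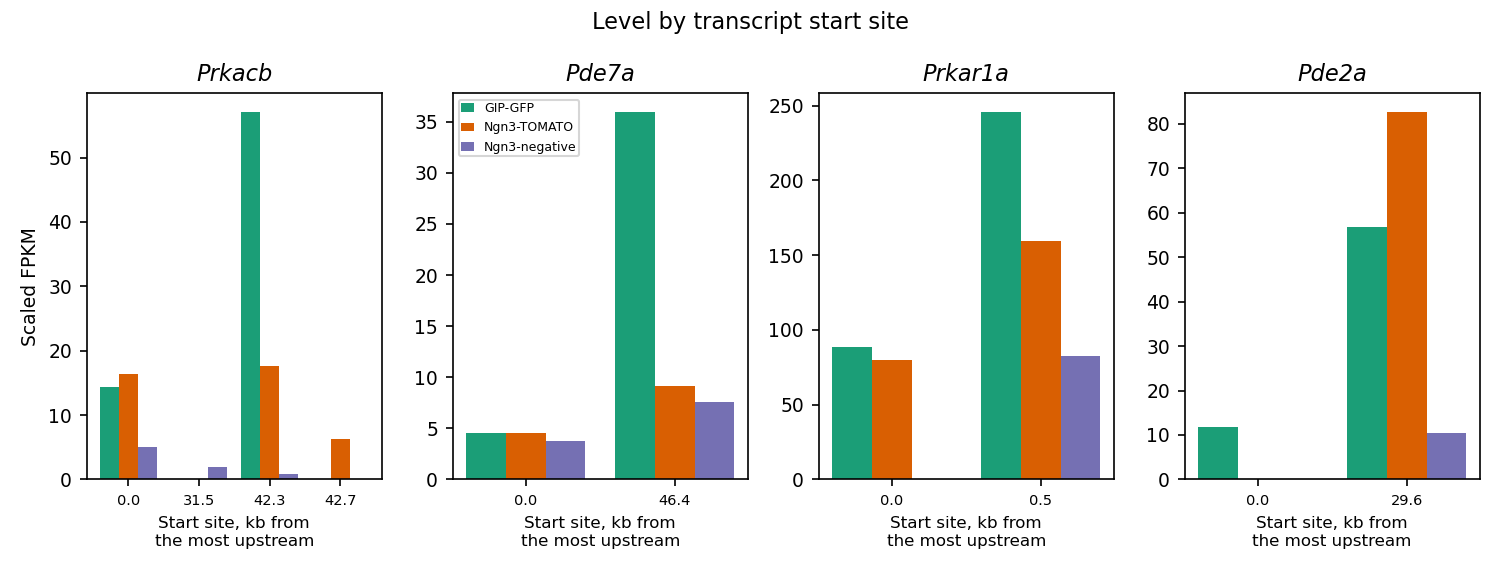
Level (y axis, scaled FPKM) by transcript start site for 4 genes with more than 1 start above 0, ordered from the most upstream, with 1 bar per library. The Prkacb start at 146770693 and the downstream Pde7a start stand highest in GIP-GFP (57.1 and 36.0). The most upstream starts of both genes are nearly level between the reporter libraries. The Prkacb start at 146770238 is above 0 in Ngn3-TOMATO alone, and that at 146781416 in Ngn3-negative alone. The upstream Prkar1a start has status LOWDATA.

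Epac proteins are exchange factors that load the small G protein Rap1 when cAMP binds, and Epac2, encoded by Rapgef4, is known for a part in insulin granule release. Rapgef4 (uc008kbn.2, chromosome 2, 71981215 to 72257474) stood at 25.1, 20.4 and 1.38, with log2 ratios to Ngn3-negative of 3.45 (3.22 to 3.69) and 3.17 (2.86 to 3.47). The reporter libraries differed from each other by 0.28 (0.03 to 0.54). The start whose promoter is printed above held 100% in Ngn3-TOMATO and Ngn3-negative and 82.8% in GIP-GFP, and a second start at 72054617 held the rest there. Rapgef3, which encodes Epac1, stood at 0.625, 6.16 and 1.18. Ngn3-TOMATO was 3.29-fold above Ngn3-negative and 4.41-fold above GIP-GFP, and both calls were lost with a pseudocount of 5 (0.85 over Ngn3-negative, and -0.99 for GIP-GFP over Ngn3-TOMATO). Its Ngn3-negative level was 19.1% of that in Ngn3-TOMATO, beside 17.5% to 24.4% for goblet and 16.8% to 20.2% for Paneth cell markers. Its GIP-GFP level was 10.1% of it, beside 2.19% to 7.92% and 6.43% to 12.4%; the part of such cells was not tested. The ratio of Rapgef4 to Rapgef3 was 40.2 (24.0 to 67.1), 3.32 (2.56 to 4.29) and 1.18 (0.826 to 1.68).

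Genes upstream and downstream of these 38 were read from wider lists. In a list of 26 genes of Gs-coupled receptors and their accessory protein Ramp1, 7 of 13 measured were at least 2-fold higher and 3 lower in GIP-GFP than in Ngn3-negative, beside 21% and 13.8% of all genes. In Ngn3-TOMATO 10 of 16 were higher and 2 lower, beside 19.2% and 9.96%. Of the 26 genes, 20 were under 1 in Ngn3-negative, so many of those measured passed the filter only through a reporter library. Without a filter, the median log2 ratio of the list went from 1.40 to 0.21 in GIP-GFP. In Ngn3-TOMATO it went from 2.15 to 0.78. Gpr119, a lipid-sensing receptor, led in GIP-GFP (98.1, 20.3 and 0.665), and the GLP-1 receptor gene Glp1r (8.57, 42.7 and 0.395) and the constitutively active receptor gene Gpr6 (14.7, 52.3 and 0.511) led in Ngn3-TOMATO. Vipr1, the receptor for vasoactive intestinal peptide, was lower in both (29.2, 41.5 and 145). Between the reporter libraries 3 of 16 genes of this list were higher in GIP-GFP and 8 lower (8.03% and 8.75% of all genes), among them Ramp1 (4.18, 51.3 and 8.84) and Ptger4 (8.10, 54.9 and 28.9). Of 6 inhibitory G protein genes, Gnao1 (275, 127 and 3.17), Gnai1 (51.7, 24.0 and 0.788) and Gnaz (12.5, 12 and 0.577) were at least 4-fold higher in both reporter libraries, beside 10.2% and 8.86% of all genes. Gnai1 and Gnaz passed the filter only through a reporter library. The other 3 were within 2-fold of Ngn3-negative, with log2 ratios in GIP-GFP of 0.77 for Gnai2, -0.84 for Gnai3 and -0.80 for Gnat3.

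A-kinase anchoring proteins hold PKA at set places in the cell, and 25 of their genes were listed. Of the 16 measured, 10 were within 2-fold of Ngn3-negative in each reporter library. The same counts over all genes were 8756 of 13428 in GIP-GFP and 9491 of 13406 in Ngn3-TOMATO. Of 16 measured, 3 were at least 2-fold higher in GIP-GFP and 3 lower (21% and 13.8% of all genes), 4 were higher and 2 lower in Ngn3-TOMATO (19.2% and 9.96%), and the medians were 0.22 and 0.24. Sphkap had the largest ratio, at 325, 34.8 and 1.07, and it is an anchoring protein that prefers type I regulatory subunits, the type that Prkar1a encodes. GIP-GFP had a 9.09-fold higher Sphkap level than Ngn3-TOMATO (log2 ratio 3.18), where Prkar1a differed 1.40-fold. Map2, which anchors type II PKA on microtubules, stood at 55.3, 18.2 and 1.14, and the lower ones in GIP-GFP were Akap1, Akap7 and Ezr. Of the 3 PKA inhibitor peptides, Pkia (52.8, 9.84 and 0.425) and Pkib (72.0, 7.69 and 0.281) were at least 4-fold higher in GIP-GFP than in either other library. Over all genes, 10.2% were so against Ngn3-negative and 2.06% against Ngn3-TOMATO. Pkia and Pkib were under 1 in Ngn3-negative, so they passed the filter against it only through a reporter library. Pkig (84.0, 50.2 and 87.9) was within 2-fold.

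Downstream of Epac, Rap1b stood at 643, 380 and 123, and Pclo, a presynaptic scaffold that binds Epac2, at 50.9, 18.4 and 0.262. The Rap1-inactivating genes Rap1gap2 (208, 160 and 27.5) and Rap1gap (118, 104 and 18.3) were also higher. Of 15 measured genes of this list, 5 were at least 2-fold higher in each reporter library (21% and 19.2% of all genes), and Rap2c (-1.15 on the log2 scale) and Rapgefl1 (-1.42) were lower in GIP-GFP. Among cyclic nucleotide-gated channels, Hcn2 (12.2, 8.5 and 3.17) and Hcn3 (12.4, 9.5 and 3.01) reached 1 in every library and stood 2-fold or more above Ngn3-negative in both reporter libraries. The pacemaker channel gene Hcn4 (32.5, 22.4 and 0.352) and the other channels measured were under 1 in Ngn3-negative, so they passed the filter only through a reporter library, and 3, 3 and 4 of the 10 were listed at 0. The cyclic nucleotide exporter Abcc5 stood at 152, 76.3 and 21.1. Of the CREB family and its coactivators, 7 of 8 were within 2-fold of Ngn3-negative in each reporter library. Over all genes, 8756 of 13428 were so in GIP-GFP and 9491 of 13406 in Ngn3-TOMATO. Crtc1 (18.4, 17.5 and 7.21) was higher in both reporter libraries.

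**Figure D5:**
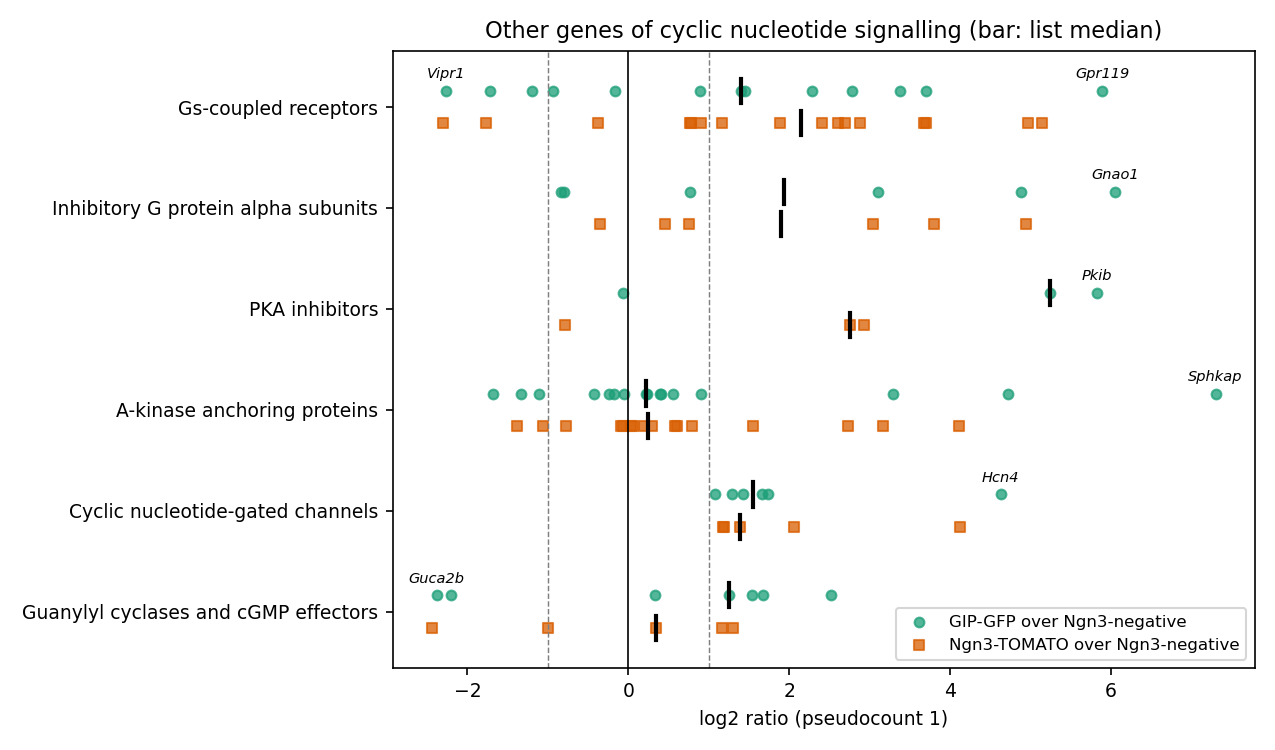
Log2 ratio to Ngn3-negative (x axis, pseudocount 1) of the measured genes of 6 wider lists, with 1 point per gene for GIP-GFP (circles) and Ngn3-TOMATO (squares) and a bar at each list's median. Anchoring proteins sit around their medians of 0.22 and 0.24 with Sphkap far to the right, while Hcn2 and Hcn3, the gated channels above 1 in every library, lie between 1.19 and 1.74.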

How the data were processed

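Each library is 1 deposited table of 59120 UCSC transcripts, and 1 sample per group left no test between groups. FastQC, TopHat 1.5.0, Cufflinks and build mm10 are named per the submitters' processing notes. Per the file headers, the authors deposited coverage (a signal of mean read depth per base), FPKM with lower and upper limits, and a status per transcript. What library size the deposited FPKM were divided by is unknown. Gene symbols came from GENCODE M21, matched without regard to strand by their ends (within 5 bases), length and overlap (at least 0.5 of the union), and 51410 transcripts were named; reads of a gene and of an overlapping antisense gene cannot be told apart. FPKM of transcripts of 200 bases or more, leaving out mitochondrial ones and those with status HIDATA, was summed per symbol and divided by 8143, which makes the mean total 1000000 and keeps ratios as deposited.

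A gene had to reach 1 in either library of a comparison, and its log2 ratio and fold were taken after adding 1 to each level, which understates differences of low genes. Shares and ratios within a library have no pseudocount. The 95% intervals come from the deposited limits, taken as 2 standard errors, and cover counting and read assignment only. Genes given with all values are those past 2-fold in any comparison and the most abundant of each role; from other lists, the most abundant and up to 2 at each end past 2-fold, a few others being chosen after their values were seen. The members and lists were chosen with earlier results of these data known. Promoters came from RefSeq (GRCm38); Adcy6, Adcy8, Pde3a, Pde3b, Pde7a, Pde9a and Gnal had no entry. Python 3.11.15, pandas 2.3.3, numpy 2.4.6 and matplotlib 3.10.9 were used, and the ratios were tested on simulated data. Alternatives changed the pseudocount, filter, scaling and transcripts used.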

Additional observations from a re-analysis of the deposited data

How the results depend on the processing

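No value reversed a call. The median log2 ratio of the genes, 1.00 in GIP-GFP over Ngn3-negative, was 0.65 with a pseudocount of 5, 0.75 without a filter, 1.46 with a filter at 5 and 0.58 with matches that share a transcript end, which leaves 25 of the 32 genes. For Ngn3-TOMATO over Ngn3-negative the median of 0.72 was 1.04 with a pseudocount of 0.1 and 1.17 with a filter at 5. Genes higher in GIP-GFP than in Ngn3-TOMATO numbered 3 as reported, 1 with a pseudocount of 5 and 6 with a pseudocount of 0.1 or the most abundant transcript only, and genes lower numbered 2 instead of 4 with a pseudocount of 5. Genes lower in GIP-GFP than in Ngn3-negative numbered 5 instead of 2 with equal totals and 1 with a pseudocount of 5, a filter at 5 or the most abundant transcript only. Genes lower in Ngn3-TOMATO than in Ngn3-negative numbered 2 instead of 1 with equal totals or the most abundant transcript only. Equal totals moved the median of all genes from 0.07 to -0.13 and from 0.03 to -0.20, and the share of all calls against Ngn3-negative that were higher in Ngn3-TOMATO from 65.9% to 53.2%. The use of transcripts with status OK only, and the shares under other transcript sums, were chosen after seeing the data. Depth was lowest in GIP-GFP. No paired analysis was possible because each group has 1 library.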

Other observations

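Genes of the cGMP side and genes that cAMP is known to induce were read from the same libraries. Gucy2c, the guanylin receptor, stood at 470 in the GIP-GFP library, 251 in the Ngn3-TOMATO library and 197 in the Ngn3-negative library, the order kept for the values that follow. Its ligands went other ways, with Guca2b at 346, 333 and 1809 and Guca2a at 196, 2046 and 906. Prkg2, the cGMP-dependent kinase of the epithelium, stood at 64.2, 24.9 and 50.7. The soluble guanylyl cyclase genes Gucy1a1 (5.11, 0.293 and 0.0638) and Gucy1b1 (2.21 and 0.139, and listed at 0 in Ngn3-negative) were low and highest in GIP-GFP.

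Of 9 immediate genes known to answer cAMP and other stimuli, 7 in Ngn3-TOMATO, and 2 of 8 measured in GIP-GFP, stood 2-fold or more above Ngn3-negative, beside 19.2% and 21% of all genes. Ppargc1a was lower in both, at 5.06, 7.86 and 29.2. Dusp1 stood at 70.8, 616 and 54.0, Fos at 602, 2030 and 523 and Nr4a1 at 89.0, 430 and 14.3, all highest in Ngn3-TOMATO, while Nr4a2 stood at 229, 65.5 and 7.47. Rgs2, a regulator that dampens G protein signals and is itself an early-response gene, stood at 15.2, 328 and 22.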
